A study of Oryza sativa with 239 samples.

Results

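Heat stress factors (Hsf) are DNA-binding proteins of plants that recognise heat shock elements in promoters and control genes of chaperones and other stress proteins. Class A factors carry an activator region, and members of class A2 build up during heat and keep the response going in tomato and Arabidopsis. Class B factors lack that activator region, and in Arabidopsis HsfB1 and HsfB2b repress heat-inducible genes, whereas tomato HsfB1 can also act beside class A factors as a coactivator. Class C factors are the third group, larger in grasses than in dicots. Plants also use these factors under drought, salt and oxidative stress.

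The 10 rice genes described here were taken by name and identifier and are 10 of the 55986 identifiers of the table. They are the class A2 genes HsfA2a (LOC_Os03g53340), HsfA2b (LOC_Os07g08140), HsfA2c (LOC_Os10g28340), HsfA2d (LOC_Os03g06630) and HsfA2e (LOC_Os03g58160), the class B genes HsfB1 (LOC_Os09g28354), HsfB2a (LOC_Os04g48030), HsfB2b (LOC_Os08g43334) and HsfB2c (LOC_Os09g35790), and the class C gene HsfC1b (LOC_Os01g53220). The identifiers place HsfA2a, HsfA2d and HsfA2e on chromosome 3, HsfB1 and HsfB2c on chromosome 9, and HsfA2b, HsfA2c, HsfB2a, HsfB2b and HsfC1b on chromosomes 7, 10, 4, 8 and 1. All 10 names were found in RefSeq on the chromosome of the identifier. The RefSeq entries of HsfA2d and HsfA2c also carry names of acireductone dioxygenase (ARD), and the HsfA2c entry is classed as a transcribed pseudogene. How reads of adjoining gene models were divided at these loci is not given in the sources used here, so the values of HsfA2c and HsfA2d are less certain than the others.

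Leaf RNA of 40 rice (Oryza sativa) cultivars and lines was sequenced, most of them numbered after a Japanese collection of rice diversity (World Rice Core, WRC) and the others labelled IR64, Koshihikari, KP and Dro1-NIL, a near-isogenic line. Seedlings stood in separate pots with automatic irrigation in a growth chamber, and treatment began 14 days after sowing. The drought group was drained and labelled moderate drought, although the treatment protocol describes a severe drought with later rewatering, and the control group stayed irrigated. The youngest fully expanded leaves and those next in age were taken on day 5, with 3 libraries for each cultivar and treatment except Dro1-NIL under drought, which had 2. No genotype other than the cultivar and no agent other than drainage is labelled. The question behind the comparison was which leaf transcripts report the drought stress a rice plant perceives.

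Drought libraries with at least 1 M (mega) reads had 2.61 to 59.5 M reads assigned to genes (median 17.4 M), and control libraries 5.99 to 37.4 M (median 14.8 M). Drought replicate 3 was shallower: with all libraries counted, the medians of drought replicates 1, 2 and 3 were 21.6, 17.6 and 6.57 M. Those of control were 16.1, 14.8 and 14.4 M. The 4 drought libraries below 1 M (WRC02 replicate 2, WRC13 replicate 1, WRC28 replicate 3 and WRC47 replicate 3) are left out of every level printed here and kept in the fits. Drought and control libraries were named in separate series, so that a difference between the series and drought cannot be told apart. Over the 1500 genes that differed most between cultivars, the drought libraries of WRC09 correlated at 0.961 to 0.977 with each other and at 0.417 to 0.434 with the control libraries of WRC09. The drought and control plants of WRC09 therefore differed in cultivar-specific genes, and WRC09 alone held 4801 genes called between treatments, where the median cultivar held 13. In 3 further libraries (WRC16 drought replicate 2, WRC16 control replicate 3 and WRC35 control replicate 3) the correlation with the own cultivar was 0.807 to 0.836 and that with another cultivar 0.671 to 0.738. All 6 libraries of WRC05 correlated at 0.848 to 0.901 with their own cultivar and at 0.656 to 0.735 with WRC06, and they were kept throughout. The tests over all cultivars were repeated without those 3 libraries and without WRC09.

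The leaf label was checked with lists of identifiers held from general knowledge to mark leaf photosynthesis, root, seed storage and shoot meristem. The 9 leaf identifiers summed to 2211 to 73192 CPM (reads scaled to 1 M per library) in single drought libraries and 7989 to 88853 CPM in control libraries. The 3 root identifiers summed to 6.61 to 68.6 CPM under drought and 6.78 to 93.6 CPM in control, and the 4 seed storage identifiers to 5.42 to 15.9 CPM under drought and 5.38 to 15.8 CPM in control. Both meristem identifiers were at or near 0 and did not pass the count filter. Of the 8 leaf identifiers that passed it, 7 fell under drought, with LOC_Os01g41710 at 1675 CPM under drought against 4866 CPM in control (log2 fold change -1.89, edgeR adjusted p = 3.7e-17). Over all tested genes 22.7% fell and 21.7% rose. Of the 3 root identifiers, LOC_Os02g44310 rose, at 0.122 CPM under drought against 0.000534 CPM in control, and LOC_Os03g01300 fell, at 5.80 against 12.03 CPM. These markers moved with the treatment to which the Hsf genes were compared, and their part in the Hsf values was not tested. In whole leaves, fewer cells of a type and less RNA per cell cannot be told apart.

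All 10 Hsf genes were measured well enough to test: each passed the same filter as 28297 of the 55986 identifiers. CPM is not divided by gene length, so levels are compared here only within a gene. Drought was compared with control in a model with cultivar as a term (edgeR quasi-likelihood, Benjamini-Hochberg adjustment over the 28297 genes, threshold 0.05). Of the 10 genes, 6 rose, 1 fell and 3 did not pass. Over all tested genes 21.7% rose and 22.7% fell, 44.4% in either direction. None of the 10 reached a fold of 2, which 1.33% of the tested genes did beside the threshold. The median log2 fold change was 0.14 over the 10 genes against -0.00136 over all tested genes, and the median absolute log2 fold change 0.20 against 0.13. The median log2 fold change was 0.13 over class A2 and 0.27 over class B. The labels do not say that each library came from a separate plant, so these p-values measure the spread between libraries, which may be technical.

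**Figure D1:**
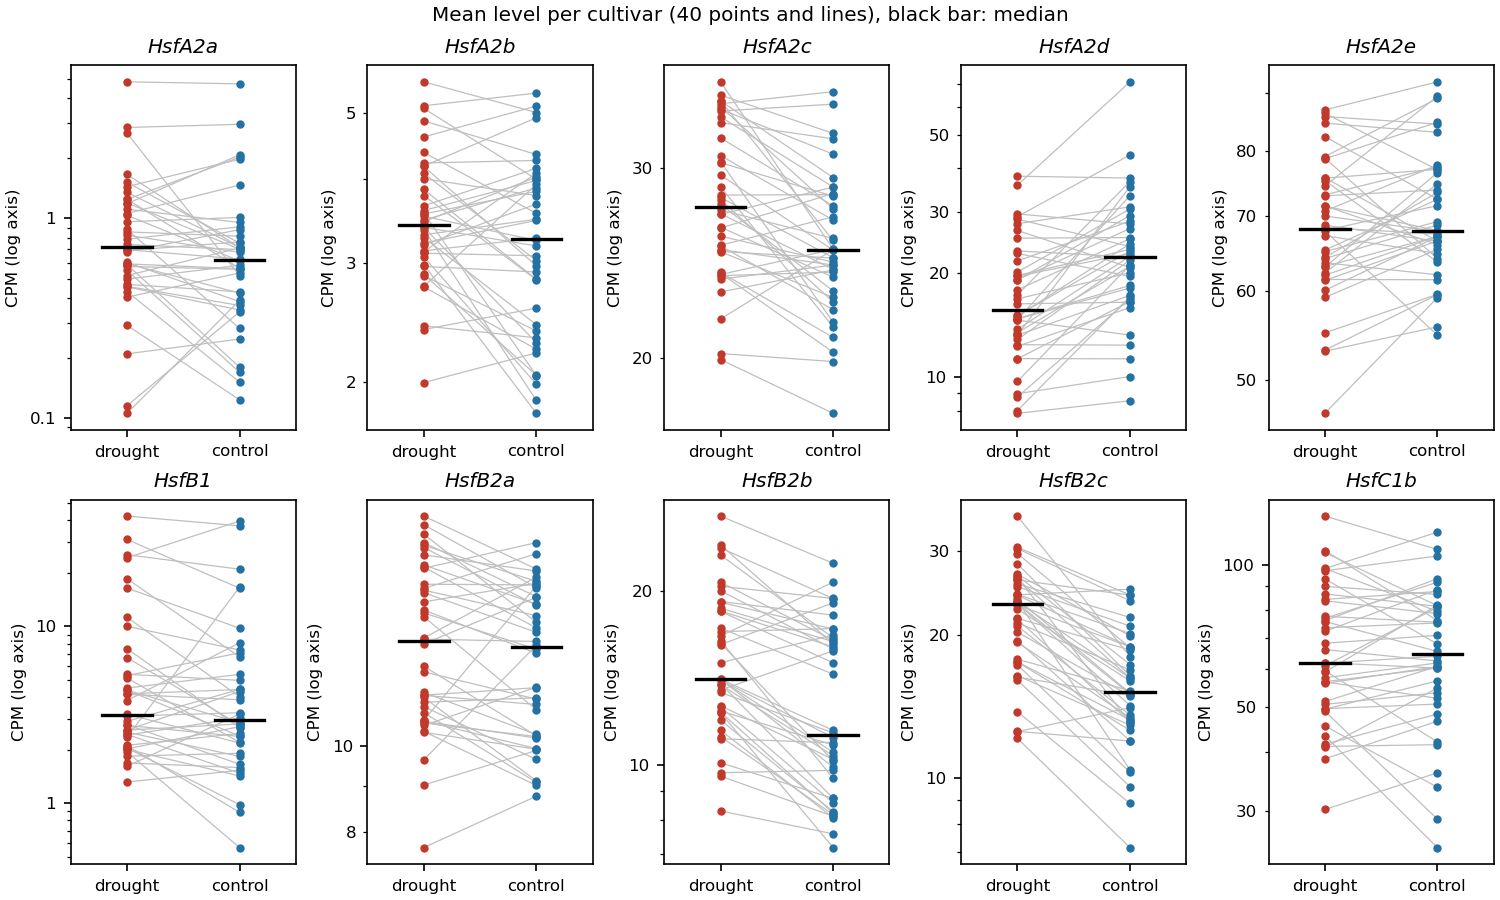
Mean CPM of each Hsf gene per cultivar on a log axis, drought left and control right, with 1 point and line for each of the 40 cultivars and a black bar at the median. HsfB2c lay higher under drought in 38 of 40 cultivars and HsfA2d lower in 31 of 40, whereas HsfC1b and HsfA2e crossed in both directions. Among all tested genes 2.06% had 38 or more and 20.5% had 31 or more cultivars on the same side.

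HsfA2d, a heat-responsive class A2 factor whose transcript is alternatively spliced in rice, was the member that fell. Its drought libraries ran from 1.81 to 60.0 CPM with a median of 15.9, and its control libraries from 3.94 to 93.7 CPM with a median of 21.99. The ranges of single libraries overlapped widely, while the cultivar means averaged 17.98 ± 7.42 CPM under drought and 24.0 ± 10.9 CPM in control (SD, n = 40 cultivars). The log2 fold change was -0.42 ± 0.07 (SE), with an edgeR adjusted p of 2.2e-08, and the mean was lower under drought in 31 of 40 cultivars. Of all tested genes 20.5% had 31 or more cultivars on the same side, and 12.5% had a log2 fold change of this size or larger in either direction. Every drought library lay below every control library in 10 cultivars, 25.0% of them, and above in 1. Over all gene and cultivar pairs 7.24% lay wholly below. Within the replicate numbers the log2 fold change was -0.20, -0.50 and -0.51 for replicates 1, 2 and 3 taken alone, and replicate 1 alone did not pass (adjusted p = 0.15). Over 14 alternative settings the adjusted p ran from 2.1e-09 to 0.15, and replicate 1 alone was the setting that lost the call.

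HsfA2c, a class A2 factor tied in rice to control of the chaperone gene ClpB, rose by a small amount. Its drought libraries lay between 13.7 and 44.3 CPM with a median of 28.4, and its control libraries between 13.9 and 37.7 CPM with a median of 25.2. Cultivar means averaged 28.2 ± 4.45 CPM under drought and 25.8 ± 3.88 CPM in control (SD, n = 40 cultivars), a log2 fold change of 0.13 ± 0.03 (SE, edgeR adjusted p = 3.6e-05). The mean was higher under drought in 29 of 40 cultivars. In 10 cultivars, 25.0% of them, all drought libraries lay above all control libraries, and in 0 below, against 6.86% and 7.24% of all gene and cultivar pairs. The value was 0.11, 0.15 and 0.13 within replicates 1, 2 and 3, where replicate 1 alone had an adjusted p of 0.0633 and the 14 settings ran from 4.0e-09 to that value.

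HsfA2b and HsfA2a, the other class A2 genes that rose, did so by small amounts that rested on part of the libraries. HsfA2b had 1.67 to 6.26 CPM in drought libraries (median 3.39) and 1.29 to 6.13 CPM in control libraries (median 3.22). Its log2 fold change was 0.14 ± 0.05 (SE, edgeR adjusted p = 0.00977), with 22 of 40 cultivars higher under drought. Replicate 1 alone gave 0.27, replicate 2 alone 0.13 and replicate 3 alone 0.02. Without replicate 1 the value was 0.08 and the adjusted p 0.315, within a range of 6.2e-04 to 0.912 over 14 settings.

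HsfA2a had so few reads that counting error weighs on each library. The median drought library held 11 reads of it and the median control library 8, with 3 libraries at 0 in each group. Its cultivar means averaged 0.975 ± 0.852 CPM under drought and 0.848 ± 0.861 CPM in control (SD, n = 40 cultivars). The log2 fold change was 0.30 ± 0.12 (SE, edgeR adjusted p = 0.0289), and 26 of 40 cultivars were higher under drought. At least 26 cultivars lay on the same side in 45.7% of all tested genes, and 21.3% had a log2 fold change as large in either direction. The call was lost without replicate 1 (adjusted p = 0.224) and without replicate 3 (0.123), and the 14 settings ran from 0.00977 to 0.512.

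HsfA2e, which raises heat tolerance when expressed in Arabidopsis, did not pass the test. It had 31.8 to 100.2 CPM in drought libraries (median 67.96) and 42.6 to 106.5 CPM in control libraries (median 68.95). The log2 fold change was -0.05 with a 95% interval of -0.10 to 0.00552 (edgeR adjusted p = 0.148), and it was 0.01 with size factors of the relative log expression (RLE) method. The mean was lower under drought in 26 of 40 cultivars, and 45.7% of all tested genes had as many or more on the same side.

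HsfB2c, a class B factor, had the clearest difference of the 10 genes. Its drought libraries lay between 8.18 and 35.6 CPM with a median of 21.3, and its control libraries between 6.34 and 29.7 CPM with a median of 15.7. Cultivar means averaged 22.1 ± 5.33 CPM under drought and 15.9 ± 4.34 CPM in control (SD, n = 40 cultivars). That is a log2 fold change of 0.49 ± 0.04 (SE), or 1.40-fold, with an edgeR adjusted p of 2.5e-21. The mean was higher under drought in 38 of 40 cultivars. Of all tested genes 2.06% had 38 or more cultivars on the same side, and 9.47% had a log2 fold change of this size or larger in either direction.

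HsfB2c passed over the cultivars in each of the 14 alternative settings. In 15 cultivars, 37.5% of them, all drought libraries lay above all control libraries, against 6.86% of all gene and cultivar pairs, and in 0 cultivars did they all lie below. Its log2 fold change was 0.33, 0.54 and 0.56 within replicates 1, 2 and 3 alone, with adjusted p values of 0.00239, 2.0e-09 and 6.2e-09. Its adjusted p over the 14 settings ran from 3.7e-28 to 0.00239.

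**Figure D2:**
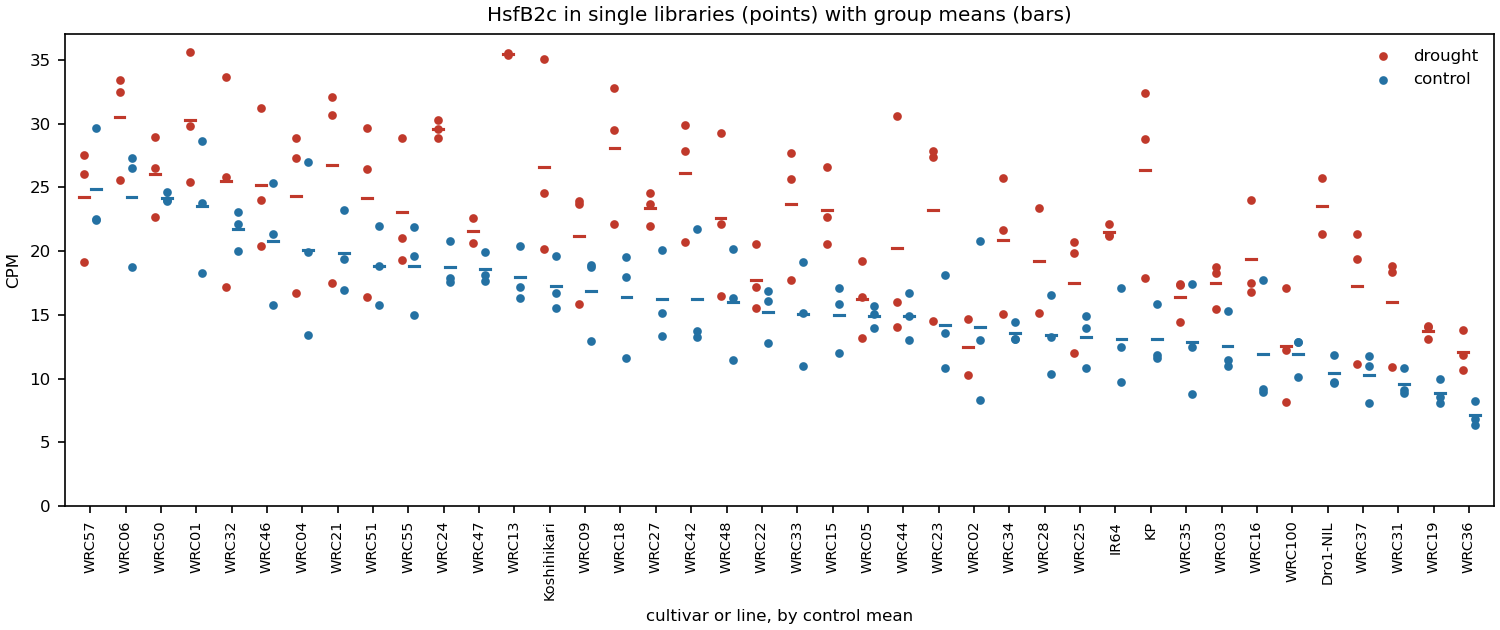
HsfB2c CPM in single libraries of at least 1 M reads (points) with group means (bars), drought in red left of control in blue, cultivars ordered by control mean. Drought libraries reached 35.6 CPM and control libraries 29.7 CPM, and WRC36 had the lowest mean in both treatments.

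Single cultivars show the spread behind this. KP had 17.9, 28.8 and 32.4 CPM of HsfB2c under drought against 11.8, 15.8 and 11.6 CPM in control, without overlap. IR64 had 21.2, 21.3 and 22.1 CPM under drought against 12.5, 9.75 and 17.1 CPM in control. WRC13 had 35.3 and 35.5 CPM under drought, the highest mean of that treatment, against 16.3, 17.2 and 20.4 CPM in control. WRC36, the lowest cultivar in both treatments, had 11.8, 10.7 and 13.8 CPM under drought against 8.24, 6.34 and 6.86 CPM in control, so the lowest cultivar also stood higher under drought. WRC100 overlapped, with 8.18, 12.3 and 17.1 CPM under drought against 12.9, 12.9 and 10.1 CPM in control.

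HsfB2b, a class B factor whose overexpression lowers drought and salt tolerance in rice, rose as well. Its drought libraries ran from 7.10 to 37.1 CPM (median 14.6) and its control libraries from 5.23 to 28.96 CPM (median 11.7). Cultivar means averaged 15.6 ± 4.40 CPM under drought and 13.02 ± 4.34 CPM in control (SD, n = 40 cultivars), a log2 fold change of 0.29 ± 0.04 (SE, edgeR adjusted p = 7.0e-10). The mean was higher under drought in 34 of 40 cultivars. Among all tested genes 10.5% had 34 or more cultivars on the same side, and 22.6% had a log2 fold change as large in either direction. All drought libraries lay above all control libraries in 9 of 40 cultivars and below in 2, where 6.86% of all gene and cultivar pairs lay above and 7.24% below. WRC16 was one of the 9, with 16.7, 16.5 and 16.1 CPM under drought against 9.87, 9.52 and 9.02 CPM in control, although its drought replicate 2 and control replicate 3 are among the libraries that resembled another cultivar as well. WRC51 went the other way, with 12.2, 19.3 and 18.7 CPM under drought against 20.6, 20.1 and 21.5 CPM in control. The log2 fold change was 0.14 within replicate 1 alone (adjusted p = 0.145) and 0.39 and 0.31 within replicates 2 and 3, over a range of 5.6e-11 to 0.145 in the 14 settings.

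HsfB2a and HsfB1, the remaining class B genes, lay at the threshold. HsfB2a had 6.80 to 20.4 CPM in drought libraries (median 12.9) and 7.77 to 18.7 CPM in control libraries (median 12.5). Its log2 fold change was 0.06 ± 0.02 (SE, edgeR adjusted p = 0.0424), with 28 of 40 cultivars higher under drought. The call was lost without each of replicates 1, 2 and 3 (adjusted p = 0.101, 0.25 and 0.0605), with DESeq2 (0.0643) and with the cultivar as the unit (0.157), over a range of 2.0e-04 to 0.511.

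HsfB1, a repressor in Arabidopsis and a coactivator in tomato, did not pass. It had 0.387 to 73.8 CPM in drought libraries (median 3.18) and 0.473 to 60.9 CPM in control libraries (median 2.98). The log2 fold change was 0.26 ± 0.11 (SE, edgeR adjusted p = 0.0545), with 24 of 40 cultivars higher under drought. As many cultivars or more lay on the same side in 59.6% of all tested genes. HsfB1 was tested against the same threshold as the others. It passed in 4 of the 14 settings: with RLE scaling (0.0234), without replicate 2 (0.0356), without the libraries under 1 M reads (0.0424) and with DESeq2 (0.0406). The highest adjusted p was 0.835, and the log2 fold change was 0.47, 0.09 and 0.12 within replicates 1, 2 and 3 alone.

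HsfC1b, the class C gene, which is needed for salt tolerance in rice, did not pass either. It had 12.3 to 148.4 CPM in drought libraries (median 67.3) and 13.6 to 165.2 CPM in control libraries (median 67.1). Its log2 fold change was 0.02 with a 95% interval of -0.09 to 0.13 (edgeR adjusted p = 0.846). The sign changed with the replicates used, and 17 of 40 cultivars were higher under drought and 23 lower. At least 23 cultivars lay on the same side in 67.8% of all tested genes.

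**Figure D3:**
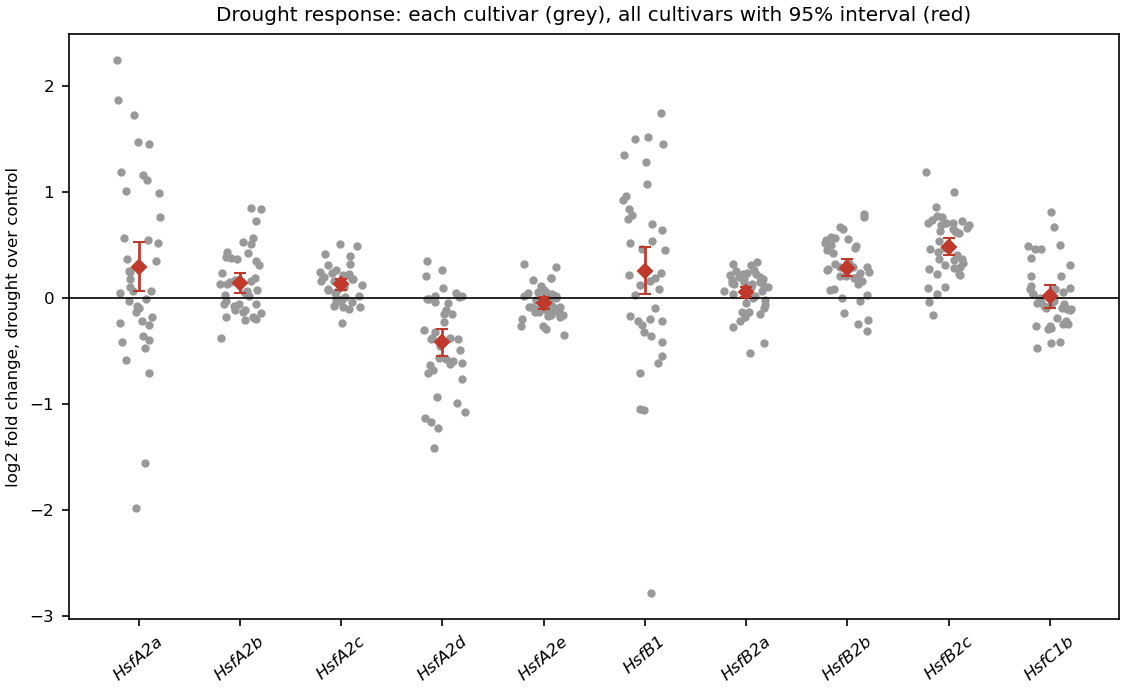
Log2 fold change of drought over control for each Hsf gene, within each cultivar (grey points) and over all cultivars with its 95% interval (red diamonds and bars). The interval of HsfA2d lies below 0, those of HsfA2e and HsfC1b include 0, and those of the other Hsf genes lie above 0. The intervals are not adjusted for the number of genes tested, and HsfB1 did not pass after adjustment. The points of HsfA2a and HsfB1 spread most widely.

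Genes of the same pathway are given by identifier only. Of 15 identifiers taken as the other rice Hsf genes, 11 passed the filter, and 6 rose, 0 fell and 5 did not pass under drought. Of all tested genes 21.7% rose and 22.7% fell. The median log2 fold change of the other Hsf genes was 0.12. LOC_Os01g43590 rose most, at 3.00 CPM under drought against 2.02 CPM in control (log2 fold change 0.58, edgeR adjusted p = 1.1e-13). Of 25 identifiers taken as chaperone genes, the usual targets of Hsf proteins, 24 passed, and 10 rose, 2 fell and 12 did not pass, with a median log2 fold change of 0.19. LOC_Os02g54140 rose most, at 2.35 CPM under drought against 1.56 CPM in control (log2 fold change 0.63, edgeR adjusted p = 5.9e-11). LOC_Os03g60620 fell most, at 227 CPM under drought against 261 CPM in control (log2 fold change -0.20, edgeR adjusted p = 9.1e-07). None of either list reached a fold of 2, which 1.33% of all tested genes did beside the threshold.

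Each cultivar was then tested by itself, in a fit where every combination of cultivar and treatment had its own mean and all shared a spread. Of the 400 pairs of Hsf gene and cultivar, 5 passed the adjusted threshold with a fold of at least 2, against 0.615% of all gene and cultivar pairs. Without WRC09 it was 4 of 390 pairs, against 0.346% of all. A further pair, HsfB2a in WRC09, passed with a smaller fold, and at any fold 0.923% of all pairs passed. All drought libraries lay above all control libraries in 54 of the 400 pairs, or 13.5%, and below in 21, or 5.25%, against 6.86% above and 7.24% below over all gene and cultivar pairs.

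HsfB2c was called in KP, whose libraries are given above. It averaged 26.4 ± 7.53 CPM under drought and 13.1 ± 2.38 CPM in control (SD, n = 3 each), with a log2 fold change of 1.00 ± 0.26 (SE, edgeR adjusted p = 0.0211), and over 10 settings the adjusted p ran from 0.00208 to 0.371. The call was lost without replicate 2 (adjusted p = 0.115) and without replicate 3 (0.371). With the replicate block and without the libraries that resembled another cultivar, the adjusted p passed (0.0156 and 0.0171) but the fold lay just under 2 (log2 fold change 0.999 and 0.993), so that the pair was not called there either. HsfB2c reached an unadjusted p under 0.05 in 19 of the 40 cultivars, HsfB2b in 10, HsfA2d in 7 and each of the other Hsf genes in 1 to 5, where 8.46% of all gene and cultivar pairs did. In Dro1-NIL, HsfB2c had 25.7 and 21.3 CPM under drought against 9.67, 9.70 and 11.8 CPM in control, a log2 fold change of 1.19 ± 0.30 (SE) that did not pass in edgeR (adjusted p = 0.0901), while DESeq2 fitted to Dro1-NIL alone gave an adjusted p of 3.5e-04.

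HsfA2d was lower in WRC24, with 10.2, 11.6 and 22.2 CPM under drought against 21.4, 24.8 and 54.02 CPM in control (log2 fold change -1.22 ± 0.40 SE, edgeR adjusted p = 0.0406, range over 10 settings 0.0342 to 0.265). It did not pass without replicate 1, 2 or 3 (adjusted p = 0.175, 0.125 and 0.265) or without the count filter (0.0806). The drought library at 22.2 CPM lay within the control range. HsfA2a was higher in the same cultivar, with 0.736, 5.10 and 2.18 CPM under drought against 0.986, 0.300 and 0.267 CPM in control (2.24 ± 0.70, edgeR adjusted p = 0.0211, range 0.00577 to 0.719). Without replicate 2, which held the 5.10 CPM, its log2 fold change was 0.89 (adjusted p = 0.719), and it did not pass without replicate 3 (0.198) or with DESeq2 (0.0523) either. WRC24 had the second largest number of called genes of all cultivars, 2559.

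The other calls were in WRC09 and WRC02. In WRC09 HsfA2d had 14.4, 12.5 and 12.7 CPM under drought against 23.3, 59.1 and 24.0 CPM in control (log2 fold change -1.42 ± 0.41 SE, edgeR adjusted p = 0.0074, range over 9 settings 4.8e-04 to 0.345). The call was kept in 8 of the 9 settings and lost in 1. Without replicate 2, whose control library held the 59.1 CPM, the log2 fold change was -0.77. HsfB2a in WRC09 had 9.89, 10.4 and 11.7 CPM under drought against 15.6, 13.5 and 16.2 CPM in control (edgeR adjusted p = 0.00591). Since the plants of the treatments in WRC09 differed in cultivar-specific genes, drought and this difference cannot be told apart there. HsfB1 in WRC02 had 2.96 and 1.76 CPM under drought, and 0 reads in the shallow replicate 2, against 34.8, 1.89 and 13.3 CPM in control (log2 fold change -2.78 ± 0.76 SE, edgeR adjusted p = 0.0349). It passed in 4 of 10 alternative settings, over a range of 3.9e-04 to 1. It did not pass without replicate 1 (adjusted p = 1), without replicate 3 (0.359), without the libraries under 1 M reads (0.062), with RLE scaling (0.0514), without the count filter (0.0512) or with DESeq2 (0.461).

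Whether cultivars differed in their drought response was tested over all 40 together. None of the 10 Hsf genes passed, where 3.87% of the tested genes did. The lowest edgeR adjusted p was 0.107, for HsfB2a, and 2 of the 10, HsfB2a and HsfB1, had an unadjusted edgeR p under 0.05 (0.00587 and 0.047). Without replicate 2, HsfB1 passed (adjusted p = 0.0208).

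Cultivars did differ in level. In control leaves all 10 Hsf genes differed among cultivars (edgeR, highest adjusted p = 2.2e-04), as did 95.1% of the tested genes. Without replicate 1, HsfA2c did not pass (adjusted p = 0.0755). Cultivar explained 63.3% (HsfA2e) to 78.5% (HsfB2a) of the variance of log2 CPM among control libraries, against a median of 69.6% over all tested genes. Cultivars next to each other in the order of levels rarely separated. For each gene and treatment, the libraries of 0 or 1 of the 39 neighbouring pairs did not overlap. Neighbours in a sorted order are close by construction. Genes outside the 10 were not counted in this way, so the count does not single out the Hsf genes.

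HsfB1 levels differed 31.9-fold under drought and 70.2-fold in control between the lowest and the highest cultivar, and those of HsfA2a, with its few reads, 45.5-fold and 38.1-fold. The HsfB1 cultivar means ran from 1.32 CPM (WRC51) to 42.1 CPM (WRC06) under drought with a median of 3.15 CPM, and from 0.562 CPM (WRC01) to 39.4 CPM (WRC04) in control with a median of 2.95 CPM. WRC04, WRC06, WRC32 and WRC100 were among the 5 highest cultivars in both treatments. WRC06 had 35.8, 73.8 and 16.6 CPM under drought against 60.0, 6.55 and 44.8 CPM in control. WRC04 had 26.6, 13.9 and 32.9 CPM under drought against 20.6, 60.9 and 36.8 CPM in control. WRC32 averaged 31.04 ± 28.6 CPM under drought and 16.5 ± 8.58 CPM in control, and WRC100 averaged 25.5 ± 19.2 CPM under drought and 21.1 ± 15.6 CPM in control (SD, n = 3 each). Replicates of these high cultivars thus differed several-fold, and treatments overlapped in each. At the low end, WRC01 had 0.476, 0.644 and 0.565 CPM in control, close together but from only 9, 9 and 4 reads. Counting error therefore weighs on the 70.2-fold of HsfB1 as well.

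**Figure D4:**
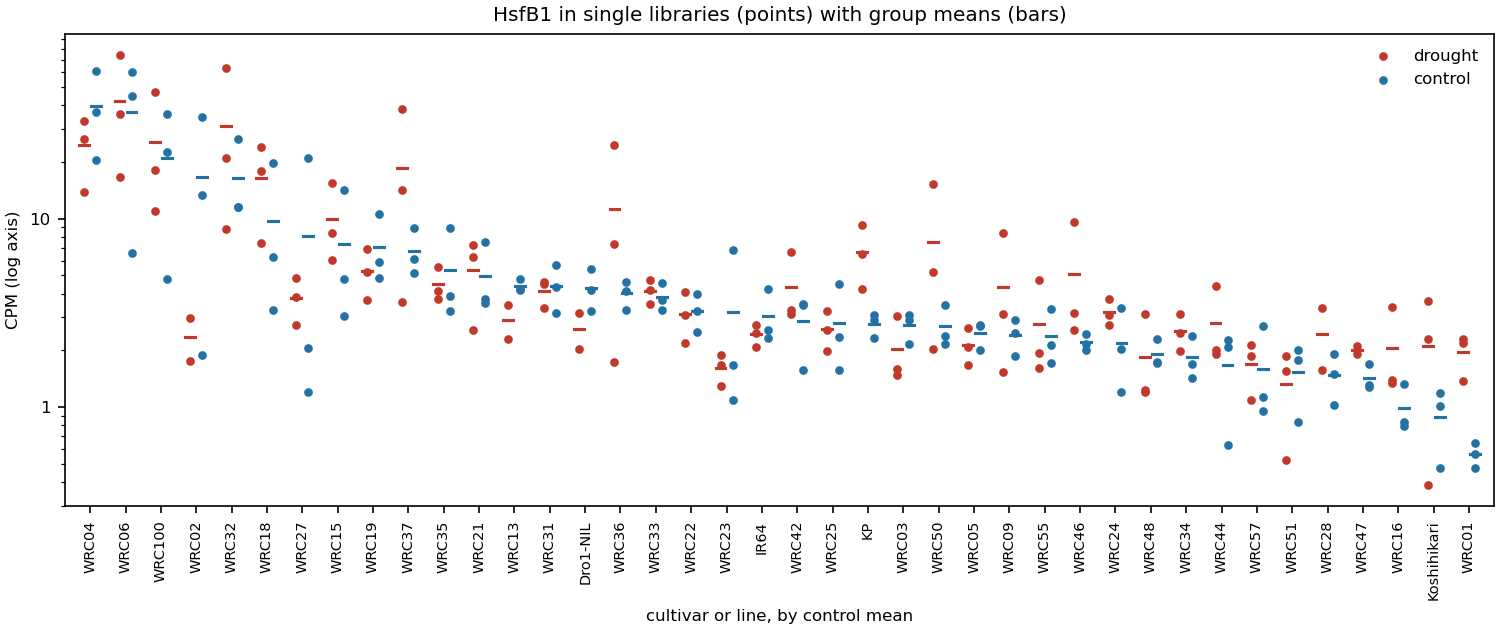
HsfB1 CPM in single libraries of at least 1 M reads (points) with group means (bars) on a log axis, drought in red left of control in blue, cultivars ordered by control mean. WRC04, WRC06, WRC100 and WRC32 lie high in both treatments, and libraries of 1 group spread widely, as in WRC06 control at 6.55 to 60.0 CPM.

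HsfA2d tended to run the other way. It was highest in WRC57 (37.98 CPM) under drought and in WRC01 (71.1 CPM) in control, and lowest in WRC100 in both treatments, at 7.86 CPM under drought and 8.54 CPM in control. WRC01, which was lowest for HsfB1 in control, had 35.2, 35.5 and 36.8 CPM of HsfA2d under drought against 66.9, 93.7 and 52.7 CPM in control, without overlap. WRC04 had 11.3 CPM of HsfA2d in each treatment. Across cultivars, Pearson's r of the log2 means of HsfB1 and HsfA2d was -0.66 under drought and -0.63 in control (Spearman's rho -0.63 and -0.56, n = 40 cultivars). Without the 2 cultivars farthest from the median of HsfB1, r was -0.61 and -0.60. HsfB1 ran against other Hsf genes too, less strongly. Its r was -0.57 under drought and -0.60 in control with HsfA2c, -0.51 and -0.49 with HsfC1b, and -0.42 and -0.39 with HsfA2e. These were weaker without the same 2 cultivars, at -0.45 and -0.48 (HsfA2c), -0.36 and -0.35 (HsfC1b), and -0.27 and -0.29 (HsfA2e). Spearman's rho was -0.45 and -0.47 with HsfA2c, -0.38 and -0.34 with HsfC1b, and -0.33 and -0.31 with HsfA2e. With the remaining Hsf genes r was weak or positive. Both values of a point come from the same libraries. The pair of HsfB1 and HsfA2d was picked out of 45 after the values were seen, so this is a description.

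HsfA2d was also compared with other Hsf genes among libraries of the same group. Over the deviations of all libraries above 1 M reads from their group means (log2 CPM, prior count 2), r was -0.51 between HsfA2d and HsfB1 and -0.67 between HsfA2d and HsfB2b. It was 0.45 between HsfA2d and HsfA2c. Both values of a point again come from 1 library, and these pairs were picked from all pairs of the Hsf genes after the values were seen. HsfB1 also had r of -0.47 with HsfA2c, -0.46 with HsfA2e and -0.41 with HsfC1b, but 0.39 with HsfB2b and 0.32 with HsfB2c. Libraries of one cultivar and treatment that were high in HsfA2d were thus often low in HsfB2b.

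**Figure D5:**
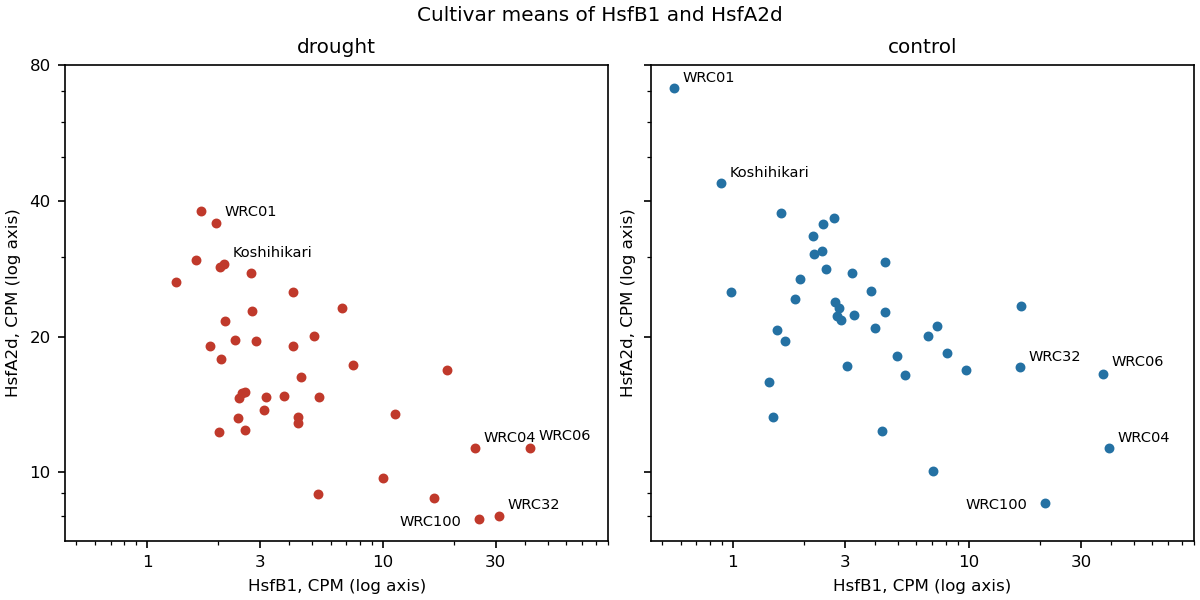
Cultivar means of HsfA2d against HsfB1 in CPM, both axes logarithmic, drought left and control right, 40 cultivars each. WRC01 and Koshihikari lie at high HsfA2d and low HsfB1, and WRC04, WRC06, WRC32 and WRC100 at the opposite end.

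HsfB2b levels in control left a gap. From 11.5 CPM (WRC55) the next cultivar stood at 14.4 CPM (WRC50), with 22 cultivars below and 18 above. The widest such gap under drought lay between 15.0 CPM (WRC44) and 16.2 CPM (WRC100), again with 22 below and 18 above, and 16 cultivars stood above in both treatments. HsfB2a had its gap in control between 11.6 CPM (Koshihikari) and 12.7 CPM (WRC50), with 22 above. Under drought it lay between 12.3 CPM (WRC27) and 13.02 CPM (WRC32), with 21 above, of which 20 were above in both. The HsfB2a gap in control was 1.09-fold, and the drought gaps were 1.08-fold (HsfB2b) and 1.06-fold (HsfB2a). HsfB1 and HsfA2a had wider gaps in control, at 1.68-fold and 1.45-fold. As a share of the log range between lowest and highest cultivar, the control gap was 19.8% for HsfB2b, 13.4% for HsfB2a, 12.3% for HsfB1 and 10.3% for HsfA2a. These gaps were looked for after the values were seen, and whether cultivars form groups was not tested.

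HsfA2b, HsfA2c and HsfA2e spread less among cultivars than HsfA2a and HsfA2d, by the fold between highest and lowest cultivar. HsfA2a was highest in WRC42, with 6.38, 2.42 and 5.68 CPM under drought against 8.19, 1.92 and 4.03 CPM in control, and WRC44 was also among the 5 highest in both treatments. HsfA2b was highest in WRC18 under drought (6.19, 6.12 and 4.37 CPM) and in WRC48 in control (4.44, 5.49 and 6.13 CPM), and WRC18, WRC19, WRC21 and WRC48 were among the 5 highest in both. HsfA2c ran from 19.9 to 36.1 CPM under drought and 17.8 to 35.3 CPM in control, and WRC06 was lowest in both. HsfA2e ran from 46.7 CPM (WRC32) to 86.99 CPM (WRC16) under drought and from 54.8 CPM (WRC04) to 92.1 CPM (WRC16) in control.

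HsfC1b also spread widely among cultivars. Its means ran from 30.2 CPM (WRC32) to 126.9 CPM (WRC47) under drought and from 25.1 CPM (WRC04) to 117.3 CPM (WRC05) in control. WRC32 had 31.9, 20.7 and 38.1 CPM under drought, and WRC24 had 108.5, 103.3 and 109.8 CPM, so that these cultivars were far apart beyond the spread of their libraries. The order of cultivars was broadly similar in both treatments for every Hsf gene. Spearman's rho between drought and control means was 0.63 (HsfA2b) to 0.84 (HsfC1b). Pearson's r was 0.65 (HsfA2b) to 0.85 (HsfB1) over 40 cultivars, WRC09 included, with no library shared between treatments. The ends were shared unevenly: HsfA2b shared 4 of its 5 highest cultivars but 0 of its 5 lowest. HsfB1 shared 4 of the highest and 1 of the lowest, and HsfB2a 1 and 2. The same values over all tested genes were not computed.

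Dro1-NIL was compared with IR64. HsfB1 and HsfB2c have identifiers of chromosome 9, the chromosome of the DRO1 locus for root growth angle. HsfB1 had 4.17, 5.44 and 3.24 CPM in Dro1-NIL control leaves against 2.32, 4.23 and 2.57 CPM in IR64 control leaves, with overlap. The log2 fold change was 0.48, with a 95% interval of -0.81 to 1.78. Under drought Dro1-NIL had 3.14 and 2.04 CPM against 2.74, 2.09 and 2.46 CPM in IR64, with a log2 fold change of 0.19 and an interval of -1.42 to 1.81. HsfB2c had 9.67, 9.70 and 11.8 CPM in Dro1-NIL control leaves against 12.5, 9.75 and 17.1 CPM in IR64 control leaves, with overlap, a log2 fold change of -0.34 (interval -0.86 to 0.18). Under drought HsfB2c had 25.7 and 21.3 CPM in Dro1-NIL against 21.2, 21.3 and 22.1 CPM in IR64, a log2 fold change of 0.14 (interval -0.44 to 0.72). For HsfB1, KP had 6.48, 9.28 and 4.26 CPM under drought against 2.33, 3.07 and 2.92 CPM in control, without overlap, but the pair was not called. HsfB1 lay wholly above control in 5 of 40 cultivars, 12.5% of them, and wholly below in 2. Over all gene and cultivar pairs 6.86% lay above and 7.24% below. None of the 10 Hsf genes passed between Dro1-NIL and IR64 in either treatment (edgeR), where 0.099% of tested genes passed with a fold of at least 2 under drought and 0.131% in control. Of the 10, 0 had an unadjusted p under 0.05, the lowest being 0.35 under drought and 0.207 in control, and DESeq2 on control leaves also called 0. The intervals of HsfB1 and HsfA2a reach past a fold of 2, upward in control leaves and in both directions under drought, with HsfA2a at -0.97 to 2.08 in control and -1.87 to 1.78 under drought, and those of HsfA2d reach past it downward in both treatments (to -1.27 in control and -1.01 under drought) and that of HsfC1b upward under drought (to 1.02). Differences of that size in these genes cannot be told with these libraries.

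The genes most like each Hsf gene were found by r of mean log2 CPM over the 80 cultivar and treatment means, among 19786 genes with a mean of at least 1 CPM. The closest match was LOC_Os04g35890 to HsfB1, at r = 0.93. LOC_Os11g11070 matched HsfA2e at 0.82, LOC_Os01g16620 matched HsfC1b at 0.80 and LOC_Os03g15740 matched HsfA2d at 0.79. LOC_Os06g41730 matched HsfA2c at 0.77, LOC_Os09g38390 matched HsfB2c at 0.71 and LOC_Os04g51950 matched HsfB2b at 0.70. LOC_Os10g42210 matched HsfB2a at 0.64, and LOC_Os10g23204 matched HsfA2b at 0.60. Within one treatment r ran from 0.48 (HsfA2b) to 0.95 (HsfB1) over drought means and from 0.50 (HsfB2c) to 0.92 (HsfB1) over control means. HsfA2a lay below 1 CPM and was not matched. The best of so many genes is high by selection, so these values only name neighbours in pattern.

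Adjacent gene models were checked because strand use in counting is not given in the sources used here. Of the 20 neighbours, 18 were tested, and 3 rose, 4 fell and 11 did not pass under drought. Over all tested genes 21.7% rose and 22.7% fell, so these counts do not set the neighbours apart. The 3 that rose were LOC_Os10g28330 beside HsfA2c (log2 fold change 0.26, edgeR adjusted p = 0.00276), LOC_Os07g08150 beside HsfA2b (1.03, edgeR adjusted p = 2.2e-05) and LOC_Os09g28340 beside HsfB1 (0.24, edgeR adjusted p = 0.00225). HsfA2c and HsfA2b rose as well. LOC_Os10g28330 averaged 0.939 CPM, under the level set for correlations, and r was -0.04 for LOC_Os07g08150 with HsfA2b and -0.07 for LOC_Os09g28340 with HsfB1. The 4 that fell were LOC_Os08g43320 beside HsfB2b (-0.44, edgeR adjusted p = 1.5e-22), LOC_Os09g35800 beside HsfB2c (-0.35, 1.6e-07), LOC_Os04g48040 beside HsfB2a (-0.10, 0.00595) and LOC_Os07g08120 beside HsfA2b (-0.06, 0.00496), and these 4 lie beside genes that rose. LOC_Os03g06620, beside HsfA2d, did not pass (-0.03, edgeR adjusted p = 0.317) and had the highest r with its neighbour, 0.48. The part of adjoining models in the Hsf values was not tested.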

How the data were processed

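The authors deposited unnormalized counts for each gene model and library. Alignment and counting involved STAR, featureCounts 2.0.0 and genome build IRGSP-1.0, per the submitters' processing notes. The annotation release, the strand setting and the treatment of reads with several positions are not given in the sources used here. Per the labels' protocols the library kit was directional. Columns were joined to labels by library name, with 0 unmatched.

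Counts of 239 libraries were analysed with edgeR 4.0.16 (R 4.3.3): filterByExpr with a minimum count of 10, TMM scaling, and quasi-likelihood fits with a trended dispersion estimated on 2000 genes and interpolated. The fits were arranged for speed and checked against glmQLFTest on the real counts of randomly drawn genes. Simulated counts were used apart from this, to check how set drought folds were recovered. CPM was computed here from those counts with TMM library sizes. P-values were adjusted by Benjamini-Hochberg across the tested genes (threshold 0.05). DESeq2 1.42.0 served as an alternative. Other alternatives were RLE scaling, no filter, each replicate left out or taken alone, a replicate term, libraries or WRC09 left out, and the cultivar as the unit. Where each cultivar and treatment had its own mean, replicate effects entered as offsets from the additive fit.

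The members and lists were chosen with earlier results of these data known. Named genes are the 10 members, for each with a mean of at least 1 CPM the gene most like it, and of each list the called gene with the largest change in each direction. RefSeq (assembly ASM3414082v1) was used for names only.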

Additional observations from a re-analysis of the deposited data

How the results depend on the processing

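Of the 10 Hsf genes, 7 were called for drought over the cultivars. The count was 8 with RLE scaling, 8 without the libraries under 1 M reads, 7 with DESeq2 and 6 with the cultivar as the unit. Leaving out each replicate gave 4 to 7 (4 without replicate 1), and replicates 1, 2 and 3 taken alone gave 2, 4 and 4. The cause was not tested, but each such fit holds fewer libraries, and the drought libraries of replicate 3 were shallower (median 6.57 M reads). HsfA2e had a log2 fold change of 0.012 with RLE scaling, and HsfC1b -0.060 to 0.079 with a replicate left out (negative without replicate 2), -0.11 with replicate 1 alone and -0.00122 with replicate 3 alone. Neither passed in any of these. Of the pairs of gene and cultivar, 5 were called, 3 without the count filter, and 1 to 5 with a replicate left out. The difference of response gave 0, and 0 to 1 with a replicate left out. Control differences gave 10, and 9 to 10 with a replicate left out, and Dro1-NIL against IR64 gave 0 throughout.

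Same-numbered libraries of a cultivar shared little: deviations from group means correlated with a median r of 0.09 over all pairs, and all pairs exceeded 0.1 in 6 of 35 cultivars with 3 pairs. The numbers were therefore not taken as a pairing. With the replicate block 7 genes were called over the cultivars, 4 pairs within cultivars, 0 for the difference of response, 10 in control and 0 for Dro1-NIL. Depth limits HsfA2a most, with a median of 11 reads in drought and 8 in control libraries.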
